A study of Mus musculus with 8 samples.

Results

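The neutrophil primary granule genes are 5 of the 52097 genes in the deposited expression table. They were taken by symbol, and each symbol matched 1 Ensembl identifier: Mpo, Elane, Prtn3 and Ctsg, which encode proteins of the azurophil (primary) granule, and Ms4a3, a membrane protein gene of granulocyte progenitors. Bulk RNA was sequenced from mouse bone marrow cells sorted as CD48-CD150+LSK, a surface gate for haematopoietic stem cells in which LSK stands for no lineage markers with Sca-1 and Kit present. All mice had both Nup214 alleles flanked by loxP sites and were sampled 3 days after pIpC, a double-stranded RNA mimic that induces interferon. The 5 control libraries came from Nup214fl/fl mice without Cre, and the 3 knockout libraries from Nup214fl/fl,Mx1-Cre mice, in which the interferon-inducible Mx1 promoter drives Cre recombinase in blood cells and in other tissues. Because only knockout mice carried Cre, the effects of Cre and of losing Nup214, a nuclear pore protein, cannot be told apart. The labels give neither strain nor age, and do not tie libraries to animals, so the spread behind each p-value is that between libraries and may be technical.

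Primary granules are the first granules that a developing neutrophil makes. Their genes are transcribed in a burst at the granulocyte-monocyte progenitor and promyelocyte stages and are then shut off, so that mature neutrophils carry the proteins with little of the mRNA. Secondary and tertiary granule genes follow later. The transcription factors PU.1, C/EBP alpha, C/EBP epsilon, RUNX1 and MYB are known activators of these genes. Stem cells proper make little of these mRNAs, which are known as early signs of myeloid priming or of progenitors within a stem cell gate.

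The 5 genes lie at 4 places in the genome (annotation GENCODE M21, assembly GRCm38, also called mm10). Mpo (ENSMUSG00000009350) lies on chromosome 11 from 87793581 to 87804413, and its longest transcript has 14 exons. Prtn3 (ENSMUSG00000057729) and Elane (ENSMUSG00000020125) are neighbours on chromosome 10, from 79874476 to 79883174 and from 79886247 to 79888215, with 3.1 kb between them. Ctsg (ENSMUSG00000040314) lies on chromosome 14 from 56099881 to 56102574 beside the granzyme and mast cell protease genes. Ms4a3 (ENSMUSG00000024681) lies on chromosome 19 from 11629496 to 11640851 within the Ms4a cluster.

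The promoters are printed because the 4 granule protein genes, which were all called lower as were 59.5% of all genes tested, share a short element. A link between that element and their levels was not tested. Each sequence is RefSeq's window of 250 bases before to 50 after the start, on the gene's own strand (GRCm38.p6): chr11:87793534-87793833, plus strand, for Mpo, chr10:79886062-79886361, plus strand, for Elane, chr10:79879417-79879716, plus strand, for Prtn3, chr14:56102525-56102824, minus strand, for Ctsg, and chr19:11640802-11641101, minus strand, for Ms4a3. The Prtn3 window lies within the GENCODE span of that gene, which begins at 79874476. Capitals mark GGAAGT or its reverse complement ACTTCC, the core bound by PU.1 and other ETS factors.
Mpo: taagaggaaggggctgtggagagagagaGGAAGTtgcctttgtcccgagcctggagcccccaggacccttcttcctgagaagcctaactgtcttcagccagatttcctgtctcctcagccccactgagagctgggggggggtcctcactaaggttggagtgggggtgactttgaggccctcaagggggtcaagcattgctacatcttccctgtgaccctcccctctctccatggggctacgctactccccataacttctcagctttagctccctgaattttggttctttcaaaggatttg
Elane: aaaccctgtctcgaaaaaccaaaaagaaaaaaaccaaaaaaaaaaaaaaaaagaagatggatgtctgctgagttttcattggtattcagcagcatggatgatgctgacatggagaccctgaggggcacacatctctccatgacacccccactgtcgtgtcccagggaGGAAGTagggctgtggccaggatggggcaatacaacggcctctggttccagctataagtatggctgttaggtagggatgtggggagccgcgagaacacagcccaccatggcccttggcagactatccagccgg
Prtn3: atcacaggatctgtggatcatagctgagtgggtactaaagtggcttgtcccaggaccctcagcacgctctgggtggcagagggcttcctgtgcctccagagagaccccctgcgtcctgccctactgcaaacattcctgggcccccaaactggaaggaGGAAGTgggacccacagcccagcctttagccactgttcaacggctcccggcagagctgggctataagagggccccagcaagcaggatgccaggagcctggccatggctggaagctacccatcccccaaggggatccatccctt
Ctsg: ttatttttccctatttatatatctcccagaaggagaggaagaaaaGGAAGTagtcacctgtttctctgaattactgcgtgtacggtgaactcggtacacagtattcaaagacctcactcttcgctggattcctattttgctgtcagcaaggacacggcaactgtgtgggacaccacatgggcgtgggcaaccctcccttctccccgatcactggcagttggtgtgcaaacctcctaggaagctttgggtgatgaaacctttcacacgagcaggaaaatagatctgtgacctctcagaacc
Ms4a3: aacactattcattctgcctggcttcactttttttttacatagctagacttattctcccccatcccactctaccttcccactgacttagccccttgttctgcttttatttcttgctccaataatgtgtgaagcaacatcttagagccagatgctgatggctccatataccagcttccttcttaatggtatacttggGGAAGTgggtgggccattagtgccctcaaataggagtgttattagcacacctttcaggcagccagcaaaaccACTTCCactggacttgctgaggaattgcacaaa

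All 5 windows held GGAAGT on 1 strand or the other, against 23.8% of 32851 RefSeq promoter windows of the same length. Mpo, Elane, Prtn3 and Ctsg held the longer AGGAAGT, which overlaps it and was found in 9.35% of all windows, while the Ms4a3 window had GGAAGT preceded by another base. AGGAAGT began at position -223 in Mpo, -84 in Elane, -94 in Prtn3 and -206 in Ctsg, counted from the RefSeq start with -1 as the base before it. AACNG, the short core of MYB, was in the same 4 windows, but 80.3% of all windows hold it. TTGCNNAA, a C/EBP core, was found in the Ms4a3 window only (10.8% of all windows), and TGTGGT, a RUNX core, in the Ctsg window only (16.8%). Motifs were searched on both strands. They are matches of letters, and the motifs were picked with the sequences in view.

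Mpo, Elane, Prtn3 and Ctsg fell, and none exceeded 18.2 FPKM in any of the 3 knockout libraries. The mean level in controls was between 68.9 and 360 times that in knockouts, and the lowest control exceeded the highest knockout by between 7.86 and 35.3 times. Ms4a3 had a lower mean in knockouts, by 8.21 times, but its groups overlapped and it did not pass the test. Levels are given in FPKM, which counts sequenced fragments relative to transcript length and library size. A log2 fold change is the knockout mean less the control mean of log2(FPKM + 1), fitted by limma to the whole table. Of the 5 members 4 were called lower, where 59.5% of all 15121 genes tested were called lower. The same 4 members had every knockout below every control, as did 54.5% of all genes tested. Bulk libraries do not separate a loss of cells from a loss of RNA per cell, and the pair cannot be told apart here.

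Mpo encodes myeloperoxidase, the haem enzyme that makes hypochlorous acid in the phagosome. Controls 1 to 5 stood at 333, 1055, 951, 3771 and 1265 FPKM, and knockouts 1 to 3 at 1.05, 10.8 and 0.49 FPKM. Every control was at least 31.0 times above the highest knockout, replicate 2. The means were 1475 ± 1329 (SD, n = 5) and 4.10 ± 5.77 FPKM (SD, n = 3), and on the log2 scale the difference was -8.38 ± 0.91 (SE; limma adjusted p = 0.000164). Of all genes tested this was the largest fall. The knockout values correspond to about 43, 617 and 28 fragments at the estimated depths, so the lowest level rests on few fragments but is not a zero.

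Elane encodes neutrophil elastase, a serine protease that degrades bacterial and matrix proteins and whose human gene is mutated in congenital neutropenia. Controls 1 to 5 stood at 90.6, 594, 515, 2409 and 766 FPKM, and knockouts 1 to 3 at 2.83, 11.5 and 5.40 FPKM. The groups did not overlap, but control replicate 1 was only 7.86 times above knockout replicate 2. The means were 875 ± 893 (SD, n = 5) and 6.58 ± 4.46 FPKM (SD, n = 3), and the log2 difference was -6.36 ± 0.98 (SE; limma adjusted p = 0.000929).

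Prtn3 encodes proteinase 3, the elastase-like protease that is the main target of the autoantibody c-ANCA in people. Controls 1 to 5 stood at 644, 839, 795, 1475 and 654 FPKM, and knockouts 1 to 3 at 11.02, 9.15 and 18.2 FPKM. Its controls were the tightest of the 5 genes: the highest was 2.29 times the lowest, and the highest knockout was 1.99 times the lowest. The means were 881 ± 343 (SD, n = 5) and 12.8 ± 4.79 FPKM (SD, n = 3), and the log2 fold change was -5.98 ± 0.30 (SE; limma adjusted p = 2.06e-06). Its SE was the smallest and its adjusted p the lowest among the 5.

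Ctsg encodes cathepsin G, a chymotrypsin-like granule protease. Controls 1 to 5 stood at 78.6, 423, 332, 1174 and 400 FPKM, and knockouts 1 to 3 at 6.38, 7.12 and 4.23 FPKM. The 3 knockouts lay within 1.68 times of each other, whereas the controls spanned 14.9 times. The means were 482 ± 411 (SD, n = 5) and 5.91 ± 1.501 FPKM (SD, n = 3), and the log2 difference was -5.69 ± 0.74 (SE; limma adjusted p = 0.000304).

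Ms4a3 encodes a tetraspan membrane protein whose promoter is used in mice to trace granulocyte-monocyte progenitors. Controls 1 to 5 stood at 4.37, 67.8, 40.4, 185 and 70.05 FPKM, and knockouts 1 to 3 at 2.04, 21.5 and 3.32 FPKM. Control replicate 1 lay below knockout replicate 2, so the groups overlapped through these 2 libraries. The log2 fold change was -2.78 ± 1.21 (SE; limma adjusted p = 0.0766). Leaving out control replicate 1 gave -3.56 (adjusted p = 0.00532), and leaving out knockout replicate 2 gave -3.66 (adjusted p = 0.0492), so either library alone decided the call.

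**Figure D1:**
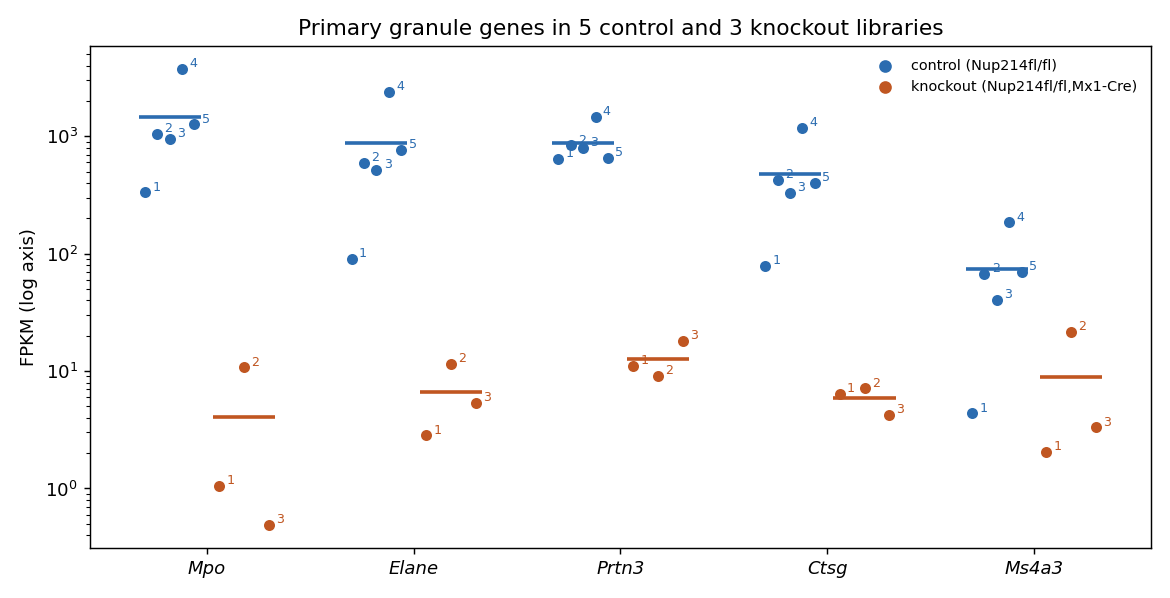
FPKM of the 5 genes on a log axis; each point is 1 library labelled with its replicate number, and bars are group means. Knockout libraries lie below all controls for Mpo, Elane, Prtn3 and Ctsg, while for Ms4a3 control replicate 1 (4.37) lies below knockout replicate 2 (21.5).

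Permuting the group labels exactly (two-sided, 56 ways to choose 3 of 8 libraries) gave p = 0.0357 for each of Mpo, Elane, Prtn3 and Ctsg, the smallest it can give, and p = 0.0714 for Ms4a3. FPKM is relative to each library's own total, and the mitochondrial genome took 37.8% to 43.3% of summed FPKM in knockouts against 5.02% to 6.66% in controls. Over all genes tested, log2 fold changes had a median of -0.81 as deposited and of 0.01 after median-ratio rescaling. Rescaled, Mpo was at -7.63 ± 0.93, Elane at -5.47 ± 0.94, Prtn3 at -5.05 ± 0.29 and Ctsg at -4.79 ± 0.71 (SE; limma adjusted p = 0.000531, 0.00289, 6.23e-06 and 0.000974). These 4 remained called lower, where 16.8% of all genes were then called lower, and Ms4a3 was at -1.93 ± 1.16 (limma adjusted p = 0.233).

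**Figure D2:**
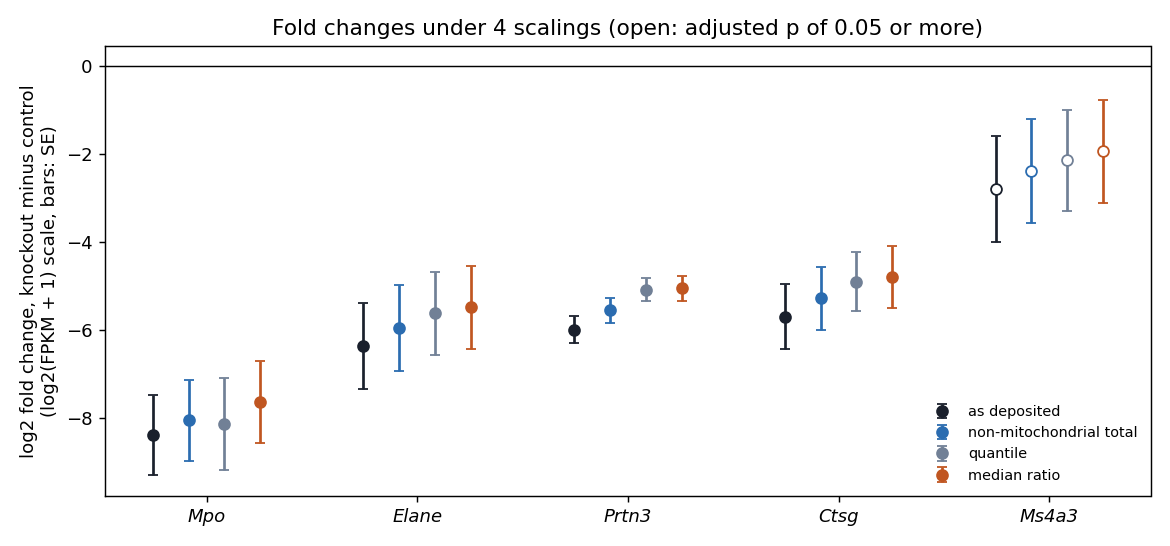
Log2 fold change of each gene, knockout minus control, with its SE under 4 scalings of the same table; filled points have a limma adjusted p under 0.05. Mpo lies lowest under all 4 scalings (-8.38 as deposited, -7.63 by median ratio), and Ms4a3 is open in each.

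Across all libraries the targeted gene and the sort were checked. Nup214 was at 34.2 to 65.2 FPKM in controls and 9.66 to 18.2 in knockouts (log2 fold change -1.66 ± 0.25, SE, limma adjusted p = 0.000289). After rescaling it was at -0.72 (limma adjusted p = 0.0514). The values are per gene and do not separate exons inside and outside the deletion, and the source of the remaining signal was not tested. Of 14 stem cell markers 8 were called lower and 1 higher (7 and 5 after rescaling), where 59.5% of all genes were called lower and 8.91% higher (16.8% and 22.1% after rescaling). Of the genes behind the gate, Kit went from 137 ± 20.97 to 12.01 ± 10.3 FPKM (log2 -3.73, limma adjusted p = 0.000123; -2.82 after rescaling), whereas the Sca-1 gene Ly6a stood at 329 ± 14.95 and 330.2 ± 55.9 (limma adjusted p = 0.965; 0.96 and called higher after rescaling). The CD150 gene Slamf1 stood at 4.45 ± 0.793 and 3.17 ± 1.71 FPKM (limma adjusted p = 0.18), and Cd48 at 232 ± 72.3 and 239.9 ± 37.05 (limma adjusted p = 0.757; 1.07 and called higher after rescaling). Summed levels of the 12 stromal and endothelial markers were 69.7 to 88.6 FPKM in controls and 379 to 901 in knockouts (9 of 11 tested rose, 2 fell), of 13 macrophage markers 393 to 507 and 1886 to 7821 (11 of 12 rose), and of 15 T and NK cell markers 732 to 2280 and 4949 to 7010 (14 of 15 rose). No gene of these 3 lists was at 0 in every control. Their part in the fall of the granule genes was not tested. The estimated depth was 19.8 to 44.1 (controls) and 16.2 to 22.7 (knockouts), in units of 1e6 fragments.

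The 5 genes also differed widely among the controls, in 1 shared order of extremes. Control replicate 4 was the highest and control replicate 1 the lowest control for all 5 genes, a pattern that 15.6% of all genes tested showed. The highest control exceeded the lowest by 42.3 times for Ms4a3, 26.6 for Elane, 14.9 for Ctsg, 11.3 for Mpo and 2.29 for Prtn3. On the log2 scale the SD over the 5 controls was 1.90, 1.69, 1.39, 1.24 and 0.49 in that order, against a median of 0.22 over all genes tested. Between 87.1% and 99.1% of tested genes varied less among controls. Without control replicate 4 the control means were 901 FPKM for Mpo, 491 for Elane, 733 for Prtn3, 308 for Ctsg and 45.7 for Ms4a3.

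Stem cell genes were ordered differently in the same control libraries, while several other myeloid lists shared the order. Control replicate 1 was the highest control for 11 of 14 stem cell genes, against 22.2% of all genes tested. Hlf, a stem cell transcription factor gene, was at 57.7, 33.1, 32.8, 26.6 and 38.6 FPKM in controls 1 to 5. Cd48, whose protein the gate excludes, had its lowest control in replicate 1 (128 FPKM) and its highest in replicate 4 (327 FPKM), as the granule genes did. Monocyte genes showed the granule gene pattern of extremes in 7 of 8 cases, basophil and mast cell genes in 6 of 8, eosinophil genes in 3 of 5, and the granulocyte-monocyte progenitor list in 11 of 18. Of the secondary and tertiary granule genes 2 of 15 showed it.

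**Figure D3:**
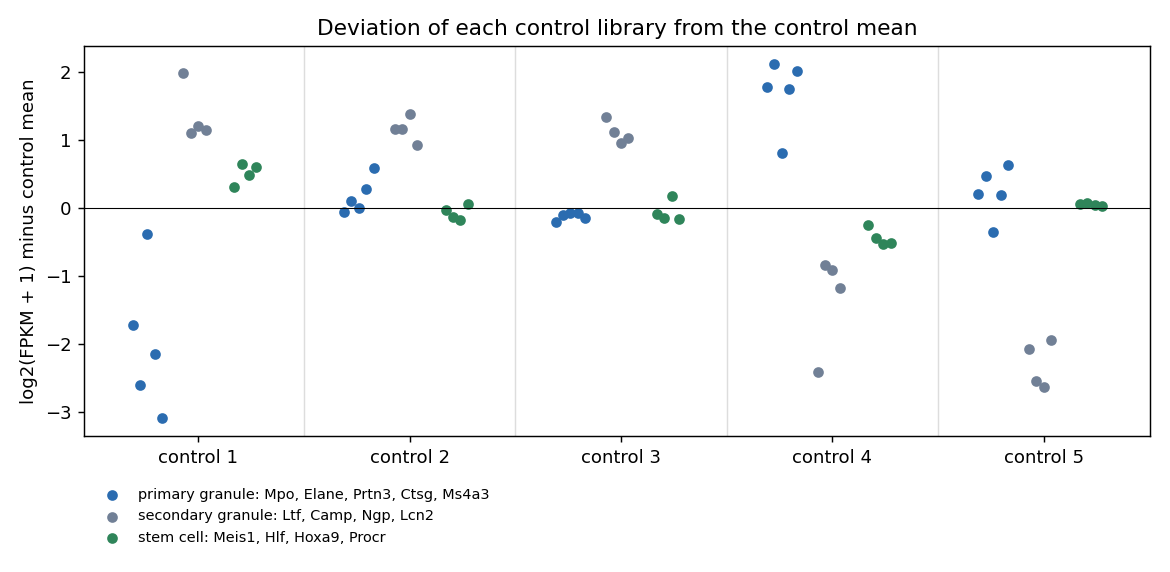
Log2(FPKM + 1) of primary granule, secondary granule and stem cell genes in each control library, minus that gene's mean over the 5 controls; each point is a gene. Primary granule genes range from -3.09 to -0.38 in control replicate 1 and from 0.81 to 2.12 in replicate 4, while the 4 secondary granule genes shown are positive in replicates 1 to 3 and negative in 4 and 5. These 4 and the 4 stem cell genes, named in the key, were picked from lists of 15 and 14 genes. Of the 15, Chil3 and Cybb, which are not shown, were lowest in replicate 1 and highest in replicate 4, as the primary granule genes were.

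Secondary and tertiary granule genes, which follow the primary granule genes in development, were mostly not called in either direction. The list of 15 also held late neutrophil genes whose products are not granule contents, such as S100a8, S100a9 and Cxcr2. Of these 15 genes 1 rose, 1 fell and 13 did not pass, with a median log2 fold change of 0.65. Of all genes tested 8.91% were called higher and 59.5% lower, at a median of -0.81. After rescaling 4 of the 15 were higher (Mmp25, Cxcr2, S100a8 and S100a9) and 0 lower, at a median of 1.46. Of all genes 22.1% were then called higher and 16.8% lower. As deposited, the gene that rose was Mmp25, a membrane-bound metalloproteinase (0.486 ± 0.110 to 4.30 ± 1.73 FPKM; limma adjusted p = 0.000144). The gene that fell was Chil3, a chitinase-like protein (189 ± 212 to 28.1 ± 9.88 FPKM; limma adjusted p = 0.0406), a call that ended under all 3 rescalings, without the filter, and without control replicate 2 or 3 or knockout replicate 1 or 2. Camp, which encodes the antimicrobial peptide CRAMP, was at 140, 147, 143, 35.9 and 10.3 FPKM in controls 1 to 5 and 54.9, 65.1 and 94.3 in knockouts 1 to 3. Ltf, which encodes lactoferrin, was at 63.3, 35.4, 40.4, 2.08 and 2.86 and then 6.35, 8.70 and 61.6 in the same order. Both overlapped between the groups.

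A difference between a member and Camp or Ltf within a library takes out most of that library's scaling, apart from the part of the pseudocount at low levels. For Mpo minus Camp it went from 4.06 ± 2.53 in controls (SD, n = 5) to -4.42 ± 1.78 in knockouts (SD, n = 3) on the log2(FPKM + 1) scale (exact two-sided permutation p = 0.0357, adjusted p = 0.0446 over 10 comparisons). For Prtn3 minus Camp it went from 3.67 ± 1.77 to -2.41 ± 0.26, with the same exact permutation p and adjusted p. All 8 comparisons of Mpo, Elane, Prtn3 and Ctsg with Camp or Ltf gave these values, with changes from -8.48 to -5.70. Ms4a3 changed by -2.88 against Camp and -2.80 against Ltf (exact permutation adjusted p = 0.318 and 0.321).

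Of the 10 pairs of members, 6 were at the smallest exact permutation p possible (0.0357), with changes from -5.60 to -2.02, and none passed after adjustment (0.0595). With this smallest p, at least 8 pairs would have to reach it for any to pass. In the controls Mpo made up 29.0% to 41.8% of the summed FPKM of the 5 genes, and in knockout replicates 1 to 3 it made up 4.503%, 17.9% and 1.55%. Prtn3 was the largest component in control replicate 1 (55.96%) and in knockout replicates 1 and 3 (47.3% and 57.6%). Ms4a3 made up 0.380% to 2.28% of the sum in controls and 8.75%, 35.8% and 10.5% in knockouts. The sum itself was 1151 to 9013 FPKM in controls and 23.3 to 60.0 FPKM in knockouts. Mpo changed by -5.60 relative to Ms4a3 and by -2.02 relative to Elane, both with exact permutation p = 0.0357 and adjusted p = 0.0595, whereas Elane relative to Prtn3 changed by -0.38 (exact permutation adjusted p = 0.714).

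In FPKM, a level per length, the order of control means was Mpo, Prtn3, Elane, Ctsg and Ms4a3. Neighbours in that order differed by less than the larger of their SDs between libraries. Within every control library, however, Mpo exceeded Elane, Elane exceeded Ctsg and Ctsg exceeded Ms4a3, and only the place of Prtn3 varied. Mpo was the highest of the 5 in control replicates 2 to 5. In the knockouts the order of means was Prtn3, Ms4a3, Elane, Ctsg and Mpo, again with neighbours closer than the larger SD.

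**Figure D4:**
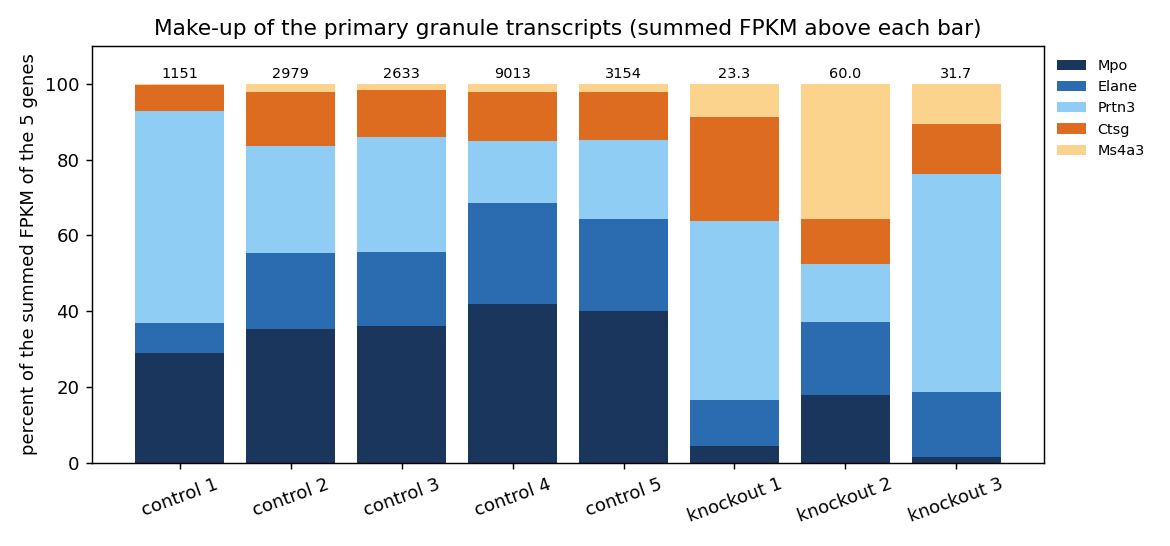
Percent of the summed FPKM of the 5 genes that each gene contributed in each library, with the sum printed above the bar. Mpo contributes at least 29.0% in every control and at most 17.9% in any knockout, and Ms4a3 is the largest component in knockout replicate 2 (35.8%).

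Knockout replicate 2 stood apart from the other knockouts in several of these genes. It had the highest knockout level of Mpo, Elane, Ctsg and Ms4a3, and the lowest of Prtn3. Beside this, eosinophil genes were high in that library: Prg2, the eosinophil major basic protein gene, was at 2081 FPKM against 26.5 and 15.4 in knockout replicates 1 and 3, and Epx, eosinophil peroxidase, at 103 against 1.25 and 2.55. The 6 eosinophil markers summed to 25.7 to 187 FPKM in controls and to 173, 2896 and 179 in knockout replicates 1 to 3. Of the 5 that were tested, Ccr3 and Ear2 rose and 3 did not pass, where 8.91% of all genes tested were called higher. After rescaling 2 of the 5 were higher, where 22.1% of all genes were. Macrophage markers were also highest there, at a sum of 7821 FPKM against 1886 and 4139. Their part in the granule gene levels was not tested. Without knockout replicate 2 the knockout mean of Mpo was 0.77 FPKM and of Ms4a3 2.68.

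Companion genes, such as those whose proteins process, carry or inhibit the granule proteases, were called in both directions. Of 11 companion genes 10 were tested: 5 fell, 2 rose and 3 did not pass. Of all genes tested 59.5% were called lower, a share near that of the companions, and 8.91% higher. The median log2 fold change was -0.72 for the companions against -0.81 over all genes. After rescaling 3 companions were lower and 3 higher, where 16.8% of all genes were called lower and 22.1% higher. Bpi, bactericidal permeability-increasing protein, was too low to test, at 0.16 FPKM or less in controls and 0.18 or less in knockouts.

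The other granule contents differed in direction. Prss57, the neutrophil serine protease NSP4, fell: it was at 18.9, 32.7, 26.3, 37.1 and 35.1 FPKM in controls 1 to 5 and at 1.33, 12.9 and 0 in knockout replicates 1 to 3 (log2 fold change -3.25 ± 0.74, SE, limma adjusted p = 0.00445; -2.57 after rescaling). Knockout replicate 2 was again the highest knockout. Gusb, the lysosomal beta-glucuronidase, went from 65.2 ± 9.88 to 28.5 ± 6.86 FPKM (limma adjusted p = 0.000334), and after rescaling it was at -0.23 (limma adjusted p = 0.307). Lyz2, lysozyme, which macrophages also make, was at 2279 ± 1793 and 1594 ± 820 FPKM (limma adjusted p = 0.627). Cd63, a granule membrane tetraspanin, was at 155 ± 14.2 and 193 ± 126 (limma adjusted p = 0.84), and was called higher after rescaling (1.06, limma adjusted p = 0.0419).

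Among the handling genes, the activator of the proteases rose and an inhibitor fell. Ctsc, cathepsin C, which removes the activation dipeptide from elastase, proteinase 3 and cathepsin G, was at 49.0, 61.9, 64.8, 132 and 65.4 FPKM in controls 1 to 5 and at 121, 389 and 230 in knockout replicates 1 to 3. Only control replicate 4 reached into the knockout range (log2 fold change 1.65 ± 0.40, SE, limma adjusted p = 0.00512). Macrophages also express Ctsc, and its highest library, knockout replicate 2, was the one with the highest macrophage sum; the part of those cells in its rise was not tested. Serpinb1a, which inhibits these proteases, went from 171 ± 10.3 to 12.5 ± 6.66 FPKM, with no overlap (fold change on the log2 scale -3.84 ± 0.33, SE, limma adjusted p = 1.56e-05; -2.92 after rescaling). Srgn, the proteoglycan serglycin that packs elastase into granules, went from 967 ± 149 to 301 ± 47.2 FPKM (limma adjusted p = 3.1e-05; -0.71 after rescaling).

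The remaining handling genes differed in direction. Cst7, cystatin F, an inhibitor of cathepsin C, was at 79.1 ± 30.6 and 53.7 ± 13.2 FPKM (limma adjusted p = 0.32). Ap3b1, a subunit of the AP-3 sorting complex, went from 33.2 ± 3.58 to 16.2 ± 2.52 (limma adjusted p = 0.000311), a log2 fold change of -0.99 that was -0.06 after rescaling. Nkg7, a granule membrane protein shared with cytotoxic lymphocytes, rose from 446 ± 118 to 797 ± 176 (limma adjusted p = 0.0158). The log2 fold change of Nkg7 was 0.87 as deposited and 1.84 after rescaling (limma adjusted p = 0.000505). The T and NK cell sum was also higher in the knockouts, but Nkg7 is itself part of that sum. The part of those cells in the rise of Nkg7 was not tested.

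**Figure D5:**
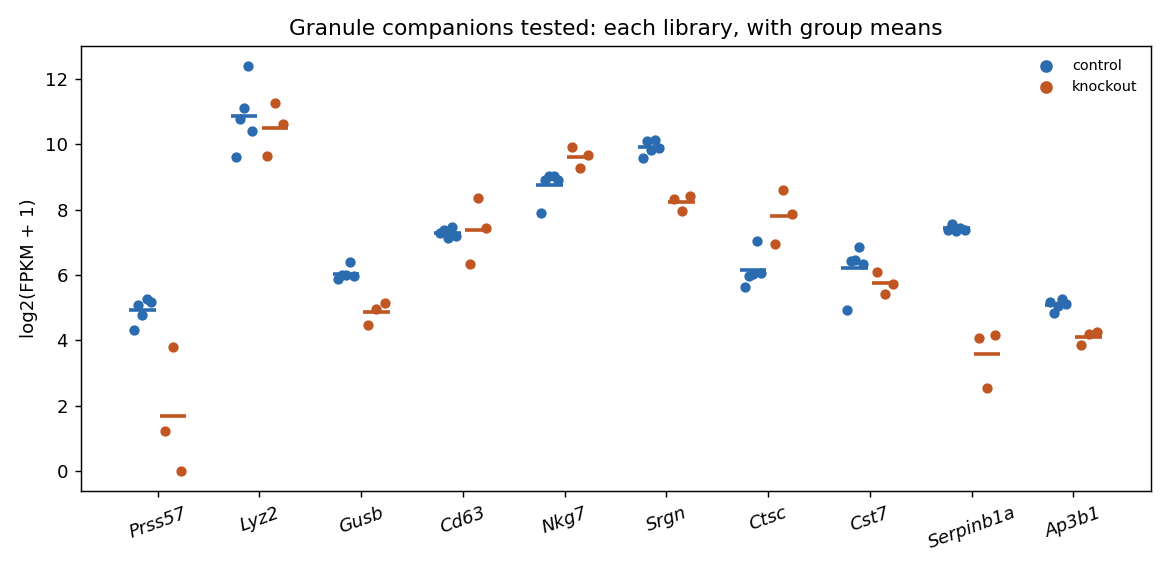
Log2(FPKM + 1) of the 10 companion genes tested; points are libraries and bars are group means. Prss57, Srgn, Serpinb1a, Gusb and Ap3b1 lie lower in knockouts, and Ctsc and Nkg7 higher.

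Of 18 granulocyte-monocyte progenitor genes, from the cells that make primary granules, 9 fell, 0 rose and 9 did not pass, a smaller share lower than the 59.5% of all genes tested. Their median log2 fold change was -1.07 against -0.81 over all genes. Rescaling left 5 lower and 2 higher, at a median of -0.11 against 0.01. The 2 higher were Fcgr3 and Csf1r, at 2.20 and 1.84 (limma adjusted p = 0.00648 and 0.00598). As deposited they were at 1.24 and 0.88 and were not called (limma adjusted p = 0.0564 and 0.0913). The cytokine receptor gene Flt3 went from 184 ± 36.7 to 3.51 ± 2.20 FPKM, the surface antigen gene Cd34 from 375 ± 21.6 to 6.21 ± 5.75 and Plac8, a gene of myeloid progenitors, from 1886 ± 411 to 184 ± 44.2 (limma adjusted p = 2.71e-06, 4.13e-05 and 5.75e-06). Of the transcription factors, Spi1, which encodes PU.1, went from 191 ± 35.3 to 79.4 ± 12.0 FPKM, a log2 fold change of -1.25 (limma adjusted p = 0.00016) that was -0.28 after rescaling (limma adjusted p = 0.187). Cebpa was at 3.96 ± 1.56 and 2.64 ± 0.320 FPKM, Cebpe at 8.30 ± 5.54 and 4.77 ± 2.73, and Gfi1 at 2.25 ± 0.499 and 1.29 ± 0.353 (limma adjusted p = 0.213, 0.255 and 0.0589).

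Genes of related lineages and families moved in both directions. Of all genes tested 59.5% were called lower and 8.91% higher (16.8% and 22.1% after rescaling). Of 8 monocyte genes 2 fell and 1 rose: F13a1, the coagulation factor XIII subunit, went from 62.6 ± 74.5 to 2.68 ± 2.97 FPKM and Fn1, fibronectin, from 21.98 ± 27.8 to 1.40 ± 0.989, while Cd14 rose from 6.65 ± 3.12 to 19.5 ± 10.4 (limma adjusted p = 0.00798, 0.0186 and 0.00713). After rescaling 1 was lower and 2 higher, and the Fn1 call ended (-1.95, limma adjusted p = 0.0782). Of 8 basophil and mast cell genes tested 2 fell, Gata2 and Cpa3, a mast cell carboxypeptidase gene (37.7 ± 20.6 to 6.73 ± 4.98 FPKM, limma adjusted p = 0.00468). After rescaling 1 was lower and 1 higher: the Cpa3 call ended (-1.53, limma adjusted p = 0.0575), and Hdc, the histamine-forming enzyme gene, was called higher (1.66, limma adjusted p = 0.019). Of 4 haem peroxidase genes tested outside Mpo, Pxdn, a matrix peroxidase, rose from 0.276 ± 0.276 to 3.70 ± 1.37 FPKM (limma adjusted p = 0.000207) and 3 did not pass. After rescaling 2 of these 4 were higher and 0 lower. Of 6 B cell genes tested 3 fell and 0 rose (0 and 1 after rescaling), near the 59.5% of all genes called lower. Of 6 granzyme and mast cell protease genes tested Gzmk, Gzmb and Gzma rose and 3 did not pass. After rescaling 3 of these 6 were higher and 0 lower.

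Of 24 neighbouring genes 13 were tested, of which 8 fell and 2 rose, near the 59.5% of all genes called lower. After rescaling 12 were tested, of which 3 were lower and 2 higher, where 16.8% of all genes were lower. Beside Elane and Prtn3, the splicing regulator gene Ptbp1 went from 146 ± 22.6 to 59.0 ± 7.84 FPKM and the Mediator subunit gene Med16 from 21.02 ± 3.46 to 6.94 ± 1.67, log2 fold changes of -1.29 and -1.48 (limma adjusted p = 8.05e-05 and 0.000132). After rescaling the Ptbp1 call ended (-0.32, limma adjusted p = 0.101) and Med16 stayed lower (-0.59, limma adjusted p = 0.0367). Cfd, the complement factor D gene 2.6 kb beyond Elane, was at 0.74 FPKM or less in all controls and at 0, 10.5 and 7.46 in knockout replicates 1 to 3, and was too low to test. Plppr3, annotated on the opposite strand and sharing 159 nt with a Prtn3 transcript, also fell. It went from 88.9 ± 20.4 to 1.14 ± 0.746 FPKM, a difference of -5.44 ± 0.27 on the log2 scale (SE; limma adjusted p = 2.06e-06). The annotated spans overlap from 79874476 to 79874634, upstream of the printed Prtn3 promoter. With no strand setting stated, reads from that shared stretch cannot be assigned to either gene. Among controls Plppr3 was highest in replicate 1 (119 FPKM) and lowest in replicate 4 (68.3 FPKM), the reverse of Prtn3.

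At the other loci several neighbours were near 0. Beside Mpo, Lpo, lactoperoxidase, was at 0.35 FPKM or less in every library. Gm11505, an antisense gene within Mpo that shares 209 nt with it, was at 2.24 to 7.54 FPKM in controls and 0 to 0.73 in knockouts, and its reads cannot be told from those of Mpo there; it was named after its values were seen. Beside Ctsg, Mcpt8, a basophil protease gene, was at 2.61, 34.8, 41.5, 377 and 153 FPKM in controls 1 to 5 and 23.3, 1.56 and 226 in knockouts 1 to 3. It shared the control extremes of Ctsg but not its fall (limma adjusted p = 0.651). Gzme, Gzmd, Gzmg, Mcpt2 and Mcpt4 were at 1.07 FPKM or less throughout. No gene had a transcript stretch of at least 100 nt at 90% identity to Elane, Ctsg or Ms4a3.

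No gene of the Ms4a family was called lower. Of 19 Ms4a genes measured 10 were tested, of which 5 rose and 5, Ms4a3 among them, were not called. Of all genes tested 8.91% were called higher and 59.5% lower. After rescaling 11 Ms4a genes were tested, of which 6 were higher and 0 lower, where 22.1% of all genes were called higher and 16.8% lower. Ms4a7, of macrophages, rose from 12.4 ± 1.58 to 131 ± 87.9 FPKM, Ms4a4b, of T cells, from 158 ± 81.8 to 711 ± 90.4, and Ms4a6d, next but 1 to Ms4a3, from 8.39 ± 4.99 to 55.7 ± 32.4 (limma adjusted p = 7.93e-05, 0.000779 and 0.000932). Macrophage and T cell markers rose in the same libraries. Ms4a2, the neighbour that encodes a subunit of the IgE receptor, was at 8.45 ± 7.53 and 3.60 ± 4.96 FPKM (limma adjusted p = 0.39).

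Likeness of profile was measured as the root mean square difference of log2(FPKM + 1) over the 8 libraries after centring each gene. Among the members, Elane and Ctsg were the closest pair (0.58) and Mpo and Ms4a3 the farthest (2.78). Outside the members, only genes tested were ranked, without predicted gene models (Gm or Rik symbols) and mitochondrial genes, so an omitted gene could be nearer. Among those ranked, the gene nearest to the mean profile of the 5 was F13a1 (1.09), followed by Myl10 (1.11) and Kcnk12 (1.15). F13a1 was also the nearest gene to Elane (1.34), Ctsg (1.10) and Ms4a3 (0.75). It was at 8.25, 32.0, 42.9, 194 and 35.8 FPKM in controls 1 to 5 and 0.86, 6.11 and 1.07 in knockouts 1 to 3, with the same highest and lowest control and the same highest knockout as Mpo, Elane, Ctsg and Ms4a3. Nearest to Mpo was Dntt, which encodes the lymphoid terminal transferase (1.66), which was at 456 to 691 FPKM in controls and 7.60, 0.38 and 1.21 in knockouts. Prtn3 was nearest to Myl10, Bex6 and Flt3 (0.53, 0.53 and 0.59), of which Flt3 ranged from 147 to 234 FPKM among controls.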

How the data were processed

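The table the authors deposited held FPKM values, as its name states, for 52097 Ensembl genes in 8 libraries. Per the submitters' processing notes, Bowtie 0.12.9, Cufflinks 2.1.1, HTSeq and DESeq2 were used with mm10, with no roles given; annotation, filters and strandedness are not given in the sources used here. Per the labels' protocols, RNA from sorted cells was amplified by Geo-seq, a method for few cells.

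Groups came from the genotype labels. Symbols matched all 52097 identifiers. Knockout was compared with control by limma 3.58.1 (limma-trend, robust empirical Bayes; R 4.3.3) on log2(FPKM + 1), for the 15121 genes that reached 1 FPKM in 3 or more libraries, with Benjamini-Hochberg adjustment over them and a threshold of 0.05. The log2 scale with a pseudocount of 1 understates changes of low genes. The fit was tested on simulated data. Exact permutation tests used scipy 1.17.1. "Rescaled" means median-ratio rescaling.

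Depth was estimated from the step of low FPKM values in genes with 1 transcript. Between 76.0% and 92.2% of those values fell within 0.15 of a whole fragment, where chance gives 30%, and fragments behind a value are estimates. Promoters were from RefSeq (GRCm38.p6; all 5 genes matched), and transcript identity was from BLAST+ 2.17.0.

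The members and the 14 gene lists (151 genes) were chosen with earlier results of these data known; 1 further stem cell gene is not reported here. Genes named were the members, the companions, up to 3 with the smallest p in other lists, Camp and Ltf. Of the 3 protein-coding neighbours on each side and the nearest 3 profiles, only some were named. Hlf, Cd48, Kit, Ly6a, Slamf1, Hdc, Fcgr3, Csf1r, Prg2, Epx, Spi1, Cebpa, Cebpe, Gfi1, Cybb, S100a8 and S100a9 were also described after their values were seen. Alternatives were other scalings, pseudocount, filters, the robust step, the replicate block and leaving out each library.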

Additional observations from a re-analysis of the deposited data

Results flagged for a closer look

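In 14 of 63 genes examined, 1 control library lay far from the other 4 by Dixon's criterion for 5 values (gap over range above 0.71). Independent normal values pass it about 1 in 20 times. It was applied here to FPKM without a log, and many of these genes shared their extremes, so that rate is not a reference here. In 13 of the 14 it was control replicate 4, as the highest. For the members these were Mpo at 3771 FPKM and Prtn3 at 1475 FPKM. The other genes highest in control replicate 4 were Ctsc at 132 FPKM, Gusb at 82.4, Chil3 at 558, Epx at 4.61, Prg2 at 95.7, F13a1 at 194, Fn1 at 70.4, Ptbp1 at 186, Dmkn at 24.96, F10 at 24.8 and Spi1 at 252 FPKM. Control replicate 1 was far below the others for Nkg7, at 238 FPKM. Dmkn and F10 are among the 3 genes nearest in profile to Ms4a3. Elane, Ctsg and Ms4a3 were also highest in control replicate 4 without passing the criterion.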

How the results depend on the processing

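Mpo, Elane, Prtn3 and Ctsg stayed called lower under all 17 alternatives each, with log2 fold changes from -9.30 to -7.63, -7.01 to -5.47, -6.25 to -5.05 and -6.22 to -4.79. Leaving out 1 library at a time gave -9.30 to -7.81, -7.01 to -5.83, -6.25 to -5.78 and -6.22 to -5.25. Ms4a3 ranged from -3.66 to -2.22 over the libraries left out (limma adjusted p 0.00532 to 0.219) and passed without control replicate 1 or knockout replicate 2, without the robust step (-2.78, limma adjusted p = 0.0392) and with a replicate block (-1.90, limma adjusted p = 0.0136; 0.197 for the same 6 libraries unblocked, added after seeing the data). The labels do not say whether equal replicate numbers pair libraries. Over all genes tested, same-numbered deviations correlated at -0.04, 0.03 and -0.04, and differently numbered ones at -0.0761 to 0.115. Such correlations cannot show whether libraries of the same number were handled together. The block fit also called 2 secondary and tertiary granule genes lower, and the same 6 libraries unblocked called 2.

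Over all genes 10345 were called as deposited, 5938 after median-ratio rescaling, 6231 after quantile normalization and 8882 with the replicate block. Companions called lower were 3 after median-ratio and 3 after quantile scaling, against 5, and progenitor genes 5 after median-ratio, against 9. Secondary granule genes called lower went from 1 to 0 without a filter, and to 0 under median-ratio, quantile and non-mitochondrial scaling; over the libraries left out the count was 0 to 1. No pair of members passed with all libraries at either pseudocount. Without any 1 library no pair could pass, and the 8 comparisons with Camp or Ltf went to 0 (lowest and highest 0) without any 1 library, since the smallest two-sided p is then 0.0571 or 0.0952. Knockout levels of Mpo in replicates 1 and 3 rest on few fragments, so their ratio to each other is imprecise.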
